A study of Homo sapiens with 14 samples.

Results

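The ZBTB genes measured here were all genes whose symbol begins with ZBTB and a number in the annotation of the array, each read by its probe set with the highest mean over the 14 arrays. They numbered 43 of the 14884 gene symbols named on the array, and 40 of them encode ZBTB proteins. The other 3 share the symbol only through their position in the genome. ZBTB8OS (opposite strand of ZBTB8A) encodes archease, a cofactor of the tRNA ligase complex, and ZBTB11-AS1 and ZBTB20-AS1 are antisense RNAs.

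ZBTB proteins join an amino-terminal BTB domain (also called POZ), through which they pair with each other and recruit corepressors such as NCOR, BCOR and histone deacetylases, to carboxy-terminal C2H2 zinc fingers that bind DNA. Most of those studied act as repressors. The family is best known from lineage choice in blood cells (ZBTB16 or PLZF, ZBTB7B or ThPOK, ZBTB7A or LRF, ZBTB46), from methylated DNA (ZBTB33 or Kaiso, ZBTB4, ZBTB38) and from MYC (ZBTB17 or MIZ1, its repressive partner), and in the prostate ZBTB16 is known as an androgen-induced gene. CTCF, the factor depleted in this experiment, is a C2H2 zinc-finger protein with no BTB domain that holds chromatin loops and domain borders.

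Expression was measured in LNCaP cells, an established line from human prostate cancer that responds to androgen. Cells received 20 nM of a CTCF siRNA pool, or 20 nM of a non-targeting siRNA pool (control siRNA), and RNA was taken after 24, 72 and 144 h, the 144 h cultures having been split at 72 h and transfected a second time. Untransfected cells received no siRNA, and their labels state no time. With 2 arrays in each of the 7 groups, all from a single line, p-values measure the spread between those arrays. Values are RMA log2 values, and a difference is the log2 value of the first group minus that of the second, with the standard error (SE) of a limma fit over 16098 named probe sets. Adjusted p-values are Benjamini-Hochberg values over all of those probe sets, and a gene was called changed at an adjusted p under 0.05. No filter on low values was used, so that all 43 ZBTB genes were tested.

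The labels were first checked on CTCF itself, the target of the siRNA. Its log2 value was 6.73 and 7.25 at 24 h, 7.46 and 7.09 at 72 h and 6.84 and 6.94 at 144 h in CTCF siRNA cells, against 9.0 and 9.11, 8.98 and 9.02, and 9.19 and 9.07 in control siRNA cells at the same times. Every CTCF siRNA array lay below every other array. The differences were −2.07, −1.72 and −2.24 (adjusted p = 0.00573, 0.00618 and 0.000137), all by limma. The 24 h call was lost without CTCF siRNA replicate 1 (0.056) of that time or with either control siRNA array of it left out (0.138 for replicate 1 and 0.196 for replicate 2). The 72 h call was lost without CTCF siRNA replicate 2 (0.128) of that time or with either control siRNA array of it left out (0.0628 for replicate 1 and 0.0926 for replicate 2). Array medians ran from 3.67 to 3.72 and replicate arrays correlated at 0.9916 to 0.9938 across named probe sets. The 6 luminal prostate markers measured averaged 7.93 to 8.30 per array. KRT5 and KRT14 of basal epithelium averaged 2.47 to 2.96, PECAM1 and VWF of endothelium 2.72 to 3.1, and DCN of fibroblasts 1.35 to 1.69. The contrast was less clear for CD68, listed as an immune marker, at 5.23 to 6.74, and for the luminal KRT8, with a mean of 5.55.

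ZBTB39, a family member whose function is little known, carried the main result, and the sequence before its start site is shown for that reason. The window below is the RefSeq promoter of GRCh38.p14 at chr12:57006497-57006796 on the minus strand, 250 bases before the start site and 50 after it, written 5′ to 3′ along the gene. Capitals mark GGGGGCGCT, a stretch that is part of the commonly drawn CTCF consensus and that was picked after this sequence had been seen.
ZBTB39: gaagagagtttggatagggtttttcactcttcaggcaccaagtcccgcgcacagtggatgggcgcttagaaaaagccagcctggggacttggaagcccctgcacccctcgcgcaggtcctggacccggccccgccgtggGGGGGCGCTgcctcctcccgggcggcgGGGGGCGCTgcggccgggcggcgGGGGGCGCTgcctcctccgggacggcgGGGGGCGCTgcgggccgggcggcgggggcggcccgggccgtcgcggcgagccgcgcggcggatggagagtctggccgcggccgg

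The stretch occurred 4 times, all on the gene's strand, with first bases 111, 84, 61 and 34 bases before the start site. Searched on both strands, it was in 364 of 35116 RefSeq promoter windows of this length (1.04%). In 2 windows (0.0057%), those of ZBTB39 and ADD2, there were 4 or more. The stretch and the cutoff of 4 were both taken from the ZBTB39 window, so this share cannot tell how unusual that window is. Promoter windows were found for 37 of the 43 ZBTB genes (71 windows), and ZBTB45 was the only other ZBTB gene with a match. The full CTCF core consensus was in 0 of the 71 ZBTB windows and in 0.47% of all windows. CCCTC, the letters that gave CTCF its name, was in 53 of the 71 ZBTB windows (74.6%) and in 71.2% of all windows, and its 1 match in ZBTB39 did not overlap the capitals above. A match describes letters only, and binding was not measured on these arrays. The median GC content of ZBTB promoters was 65.7% (41.7 to 89.7% over 37 genes), that of all windows was 58.7%, and the ZBTB39 window had 77.0% with 39 CpG dinucleotides.

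Most of the family was measured well within the range of the array. Over the 14 arrays, 35 ZBTB genes had a mean at or above the median of named probe sets (4.74) and 8 lay below it. The median member stood at 5.66. The highest mean log2 values were those of ZBTB44 (8.09), ZBTB41 (8.09), ZBTB24 (7.97), mutated in an immunodeficiency with centromere instability, and ZBTB37 (7.66). The lowest were those of the antisense RNA ZBTB20-AS1 (2.38), ZBTB7C (2.81), ZBTB8B (3.43) and ZBTB32 (3.69), the last being known from lymphocytes. Such values describe probe sets, which differ in affinity, and do not rank transcripts. The SD between the 2 arrays of a group had a median over the family of 0.08 to 0.11 in each of the 7 groups. Several probe sets were present for 4 genes (ZBTB9, ZBTB12, ZBTB22 and ZBTB46), and none of these had a called difference between CTCF and control siRNA at 144 h by any of its probe sets.

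**Figure D1:**
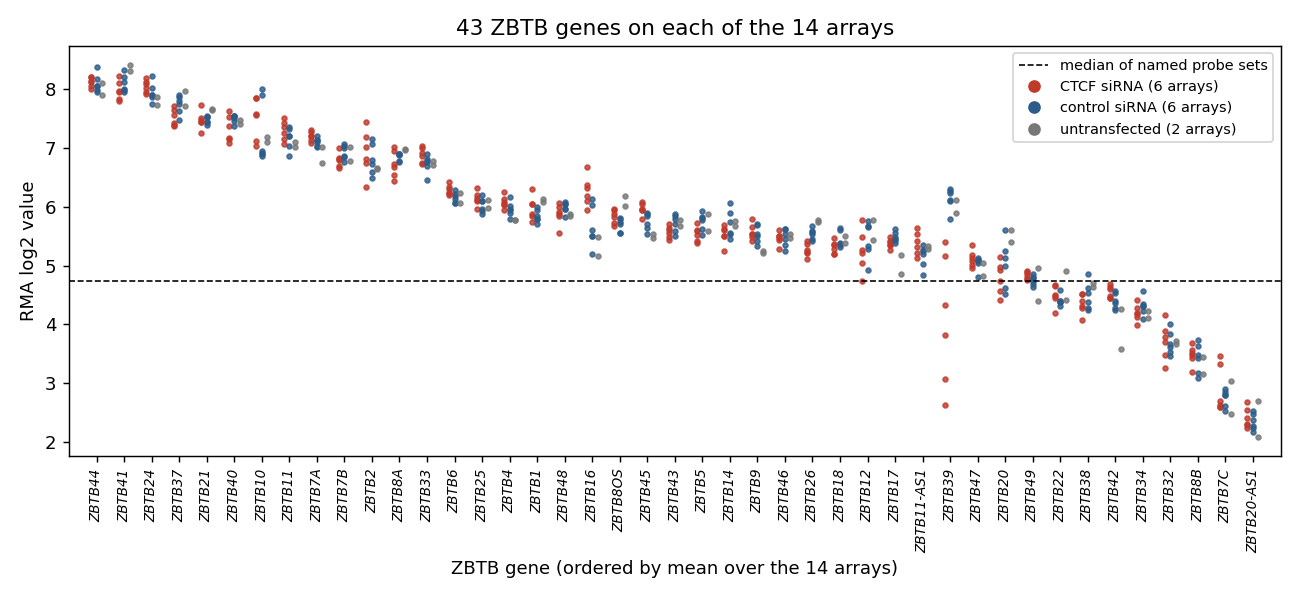
RMA log2 value (y axis) of each of the 43 ZBTB genes (x axis, ordered by the mean over 14 arrays), with a point for each array of CTCF siRNA cells (red), control siRNA cells (blue) and untransfected cells (grey), and a dashed line at the median of named probe sets (4.74). ZBTB39 has the widest range, with CTCF siRNA arrays at 2.63 to 5.40 below all control siRNA arrays at 5.80 to 6.31.

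Between CTCF and control siRNA, no ZBTB gene was called at 24 h, ZBTB39 was lower at 72 h, and at 144 h ZBTB39 was lower still while ZBTB16, ZBTB7C and ZBTB10 were higher. At 24 h the count was 0 of 43, against 0.0124% of all probe sets called (limma). At an unadjusted p under 0.05 there were 2 of 43, ZBTB39 and ZBTB26, both lower, beside 971 of 16098 probe sets. At 72 h the count called was 1 of 43 (2.33%), against 0.186% of all probe sets. At 144 h it was 4 of 43 (9.3%), against 3.76% of all probe sets, of which 3 were higher (2.37% of all probe sets were) and 1 was lower (1.4% of all). Averaged over the 3 times, ZBTB39 (−2.07 ± 0.12) and ZBTB16 (0.61 ± 0.09) were called, 2 of 43 against 2.58% of all probe sets (limma adjusted p = 3.8e-05 and 0.00631).

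**Figure D2:**
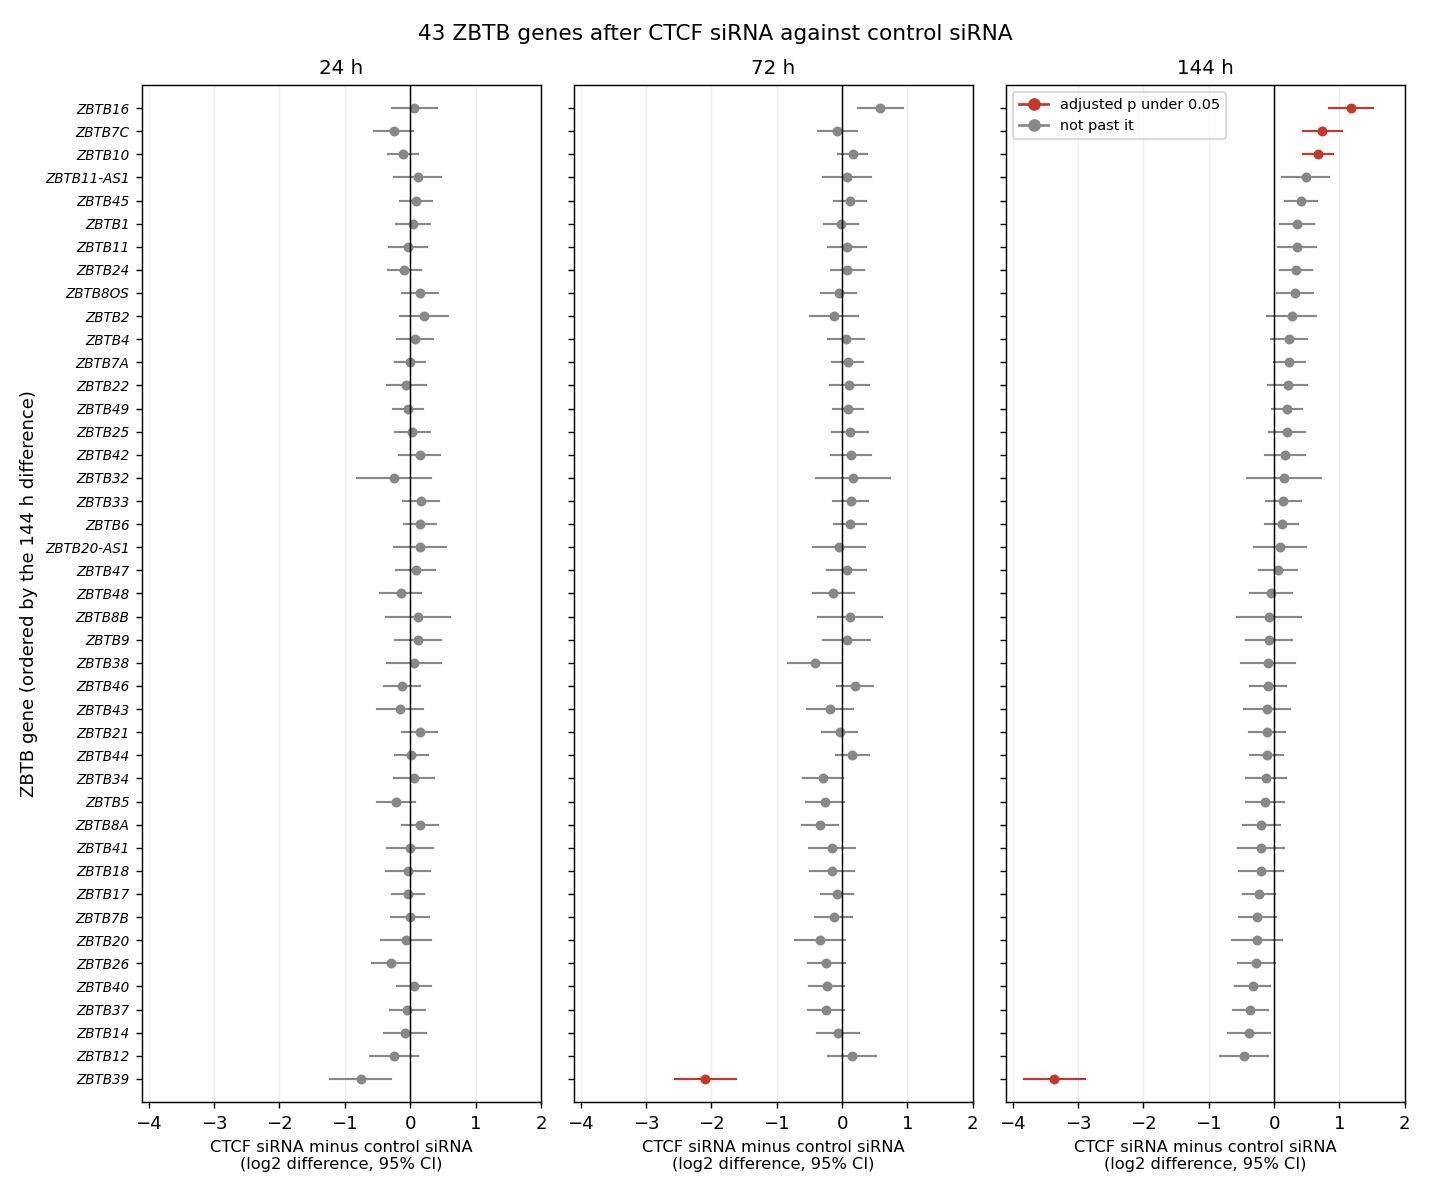
Log2 difference (x axis), CTCF siRNA minus control siRNA, of 43 ZBTB genes (rows, ordered by the 144 h difference) at 24, 72 and 144 h, with points for the limma estimate, lines for its 95% CI and red for an adjusted p under 0.05. ZBTB39 stands apart at −0.76, −2.10 and −3.36, and at 144 h ZBTB16, ZBTB7C and ZBTB10 lie at 1.18, 0.74 and 0.67.

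ZBTB39 was lower in CTCF siRNA cells at 72 and 144 h. Its log2 values were 5.16 and 5.40 in CTCF siRNA cells and 6.27 and 5.80 in control siRNA cells at 24 h. At 72 h they were 4.33 and 3.81 in CTCF siRNA cells and 6.09 and 6.24 in control siRNA cells. At 144 h they were 3.07 and 2.63 in CTCF siRNA cells and 6.12 and 6.31 in control siRNA cells. The groups did not overlap at any time, and the control siRNA arrays stayed about where the untransfected ones were (6.11 and 5.90). The difference was −0.76 ± 0.21 (SE, n = 2 each, adjusted p = 0.693) at 24 h, −2.10 ± 0.21 (adjusted p = 0.00618), or 4.27-fold lower, at 72 h, and −3.36 ± 0.21 (95% CI −3.83 to −2.90, adjusted p = 5.1e-05) at 144 h, all by limma. In bulk RNA, fewer cells with a transcript and less of it per cell cannot be told apart.

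Among the named probe sets of its own array, ZBTB39 stood at percentiles 23.3 and 16.1 in CTCF siRNA cells at 144 h and at 70.5 and 73.8 in control siRNA cells. Whether its low values at 144 h lie above the background of the array was not tested, so no fold is given there. Its difference at 144 h minus that at 24 h was −2.61 ± 0.30 (limma adjusted p = 0.005), while the CTCF transcript, already at −2.07 by 24 h, had −0.17 ± 0.25 (adjusted p = 0.866). The 144 h call held with any of 12 arrays left out. That at 72 h was lost without control siRNA replicate 2 (adjusted p = 0.0926) or CTCF siRNA replicate 2 (0.128) of 72 h, and with unnamed probe sets tested too (0.0519).

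**Figure D3:**
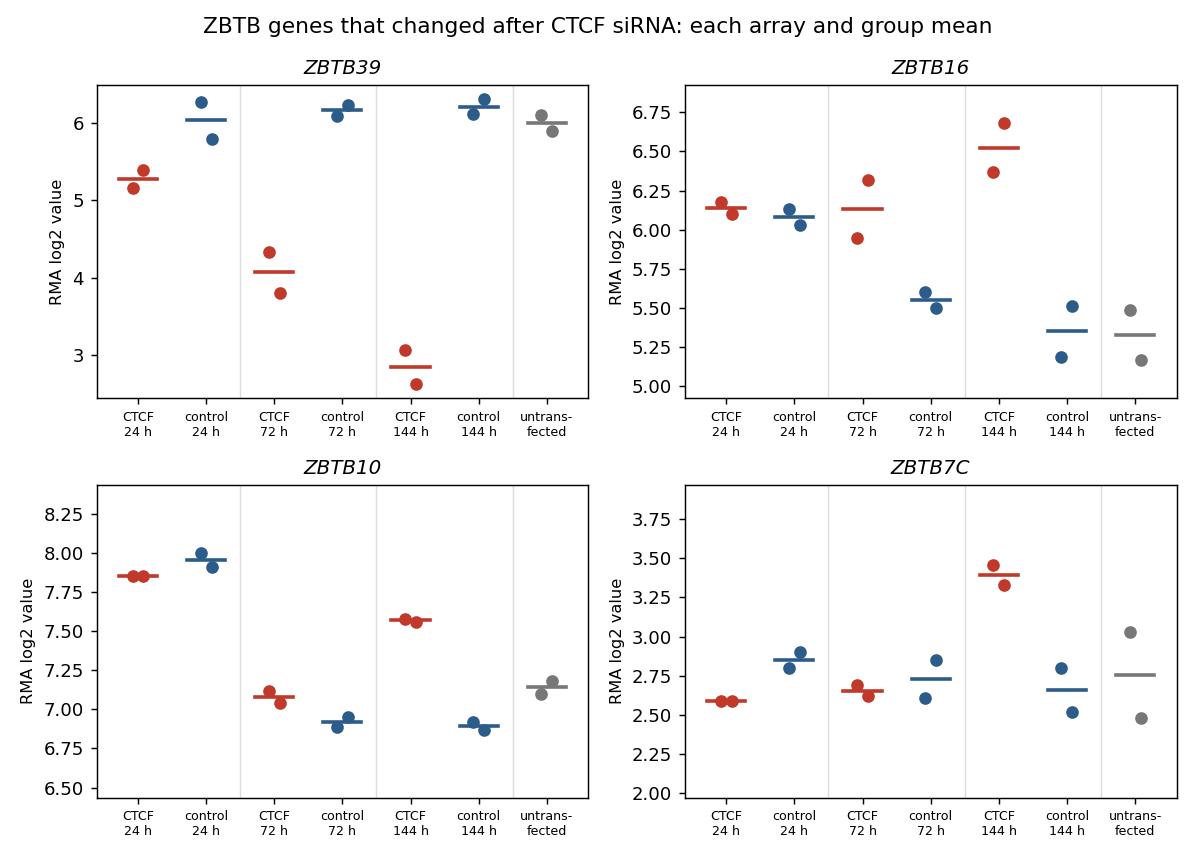
RMA log2 value (y axis, a range of its own in each panel) of ZBTB39, ZBTB16, ZBTB10 and ZBTB7C on every array (points) with group means (bars), for CTCF siRNA (red) and control siRNA (blue) at 24, 72 and 144 h and for untransfected cells (grey). ZBTB39 in CTCF siRNA cells is at 5.16 and 5.40, then 4.33 and 3.81, then 3.07 and 2.63, while ZBTB10 is as high at 24 h after control siRNA (8.0 and 7.91) as after CTCF siRNA (7.85 and 7.85).

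ZBTB16 encodes PLZF, a repressor of stem and lymphoid cells that androgen induces in prostate cells. It had the largest positive difference from control siRNA at 144 h, where control siRNA values had fallen and CTCF siRNA values were higher. Group means at 24, 72 and 144 h were 6.14, 6.13 and 6.53 in CTCF siRNA cells and 6.08, 5.55 and 5.35 in control siRNA cells. Its log2 values at 24 h were 6.18 and 6.10 in CTCF siRNA cells and 6.13 and 6.03 in control siRNA cells, and these overlapped. At 72 h they were 5.95 and 6.32 in CTCF siRNA cells and 5.60 and 5.5 in control siRNA cells. At 144 h they were 6.37 and 6.68 in CTCF siRNA cells and 5.19 and 5.51 in control siRNA cells, again without overlap, and untransfected cells had 5.49 and 5.17. The difference was 0.06 ± 0.15 (SE, n = 2 each, limma adjusted p = 0.997) at 24 h, 0.58 ± 0.15 (adjusted p = 0.292) at 72 h and 1.18 ± 0.15 (95% CI 0.84 to 1.52, adjusted p = 0.00231), or 2.26-fold higher, at 144 h. Within control siRNA cells, ZBTB16 at 144 h minus 24 h was −0.73 ± 0.15 (adjusted p = 0.0996), and the arrays of the 2 times did not overlap. The 144 h call held with any of 12 arrays left out.

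ZBTB10, known as a repressor of SP transcription factor genes, was high at 24 h in both siRNA groups and differed between them later. CTCF siRNA cells had 7.85 and 7.85 at 24 h, 7.12 and 7.04 at 72 h and 7.58 and 7.56 at 144 h. Control siRNA cells had 8.0 and 7.91, 6.89 and 6.95, and 6.92 and 6.87 at the same times, and untransfected cells had 7.10 and 7.18. At 144 h the CTCF siRNA arrays lay above both control siRNA and both untransfected arrays, but below all the 24 h arrays. The difference between CTCF and control siRNA was −0.11 ± 0.10 (SE, n = 2 each, limma adjusted p = 0.972) at 24 h, 0.16 ± 0.10 (adjusted p = 0.771) at 72 h and 0.67 ± 0.10 (adjusted p = 0.00575), or 1.59-fold, at 144 h. The call at 144 h was lost when any of the 4 arrays of 144 h was left out, at adjusted p = 0.0516 to 0.0559, with the difference at 0.66 to 0.68 throughout.

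The time course of ZBTB10 was tested within control siRNA cells only. Values in CTCF siRNA cells also fell from 24 to 72 h, but no comparison of times was fitted there. In control siRNA cells ZBTB10 was lower at 72 h than at 24 h (−1.04 ± 0.10, limma adjusted p = 0.0216) and lower at 144 h than at 24 h (−1.06 ± 0.10, adjusted p = 0.0039). These comparisons within control siRNA cells, and those of CTCF siRNA with untransfected cells, were added after the values had been seen. It was the only ZBTB gene called in either comparison, 1 of 43 each, against 0.087% and 0.248% of all probe sets. The 72 h call was lost in 8 of the 12 fits with an array left out (adjusted p = 0.0512 to 0.267) and the 144 h call in 3 (0.0568 to 0.0777), those without either control siRNA array of 24 h or control siRNA replicate 2 of 144 h.

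ZBTB7C, a relative of ZBTB7A that is also called Kr-pok, was measured at a low level. Its log2 values were 2.59 and 2.59 at 24 h and 2.69 and 2.62 at 72 h in CTCF siRNA cells, against 2.80 and 2.90 and 2.61 and 2.85 in control siRNA cells. At 144 h they were 3.46 and 3.33 in CTCF siRNA cells and 2.80 and 2.52 in control siRNA cells, while untransfected cells had 3.03 and 2.48. Only the 144 h CTCF siRNA arrays lay above all others. The difference at 144 h was 0.74 ± 0.13 (SE, n = 2 each, limma adjusted p = 0.0145), and at 24 h and 72 h it was −0.25 and −0.08. ZBTB7C stood at percentiles 29.6 and 26.9 of named probe sets in CTCF siRNA cells at 144 h and at 18.8 and 14.4 in control siRNA cells. Whether these values lie above background was not tested, and no fold is given. The call was lost without control siRNA replicate 2 (adjusted p = 0.134), CTCF siRNA replicate 1 (0.125) or CTCF siRNA replicate 2 (0.0691) of 144 h, and with unnamed probe sets tested too (0.0549).

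The other 39 ZBTB genes did not pass the threshold at 144 h. Nearest to it was ZBTB45, with 5.94 and 6.08 in CTCF siRNA cells and 5.64 and 5.54 in control siRNA cells, a difference of 0.42 ± 0.11 (limma adjusted p = 0.0703). The antisense RNA ZBTB11-AS1 had a larger difference, 0.48 ± 0.16 (adjusted p = 0.162), with 5.41 and 5.64 in CTCF siRNA cells against 4.84 and 5.25 in control siRNA cells. Its sense partner ZBTB11 was at 0.35 ± 0.13 (adjusted p = 0.214), and which strand the probe sets read was not checked here. The most negative values after that of ZBTB39 were those of ZBTB12 (−0.46), ZBTB14 (−0.38), ZBTB37 (−0.36) and ZBTB40 (−0.33), with adjusted p = 0.157 to 0.217. In these 4 genes the 144 h arrays of CTCF siRNA also lay below those of control siRNA. The 4 genes were picked by their differences at 144 h, so this separation is no separate evidence. Over all probe sets, arrays of the groups did not overlap at 144 h, in either direction, for 47.0%.

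By known role, the methyl-CpG binding members ZBTB33, ZBTB4 and ZBTB38 were at 0.14 ± 0.12, 0.23 ± 0.12 and −0.09 ± 0.19 at 144 h, none past the threshold. ZBTB17, the MYC partner, was at −0.23 ± 0.11 (limma adjusted p = 0.341). The ZBTB7 relatives ZBTB7A, which silences fetal globin, and ZBTB7B, which directs CD4 T cell fate, were at 0.23 ± 0.11 and −0.26 ± 0.13, on opposite sides of 0. ZBTB24 was at 0.33 ± 0.11 (adjusted p = 0.157), ZBTB46, a marker of classical dendritic cells, at −0.10 ± 0.12, and ZBTB20, the repressor of AFP in liver, at −0.26 ± 0.17. Of the genes that are not ZBTB proteins, ZBTB8OS was at 0.32 ± 0.12 (adjusted p = 0.219) and ZBTB20-AS1 at 0.10 ± 0.18.

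The family as a whole was centred near 0 at each time, with a spread at 144 h that was wider than that of all probe sets. The median difference was 0.00, −0.01 and −0.05 at 24, 72 and 144 h, with 22, 21 and 21 of 43 members on the positive side, and over all probe sets it was 0.01, −0.01 and 0.00. The median size of a difference, regardless of sign, was 0.09, 0.13 and 0.21 in the family and 0.10, 0.11 and 0.14 in all probe sets. CTCF and control siRNA arrays did not overlap for 12 members at 24 h (27.9%, against 35.7% of all probe sets), 22 at 72 h (51.2%, against 35.1%) and 29 at 144 h (67.4%, against 47.0%). At 144 h these were 16 higher and 13 lower. These are counts beside the background, and no test of the family as a set was made. The background was not matched for level, and 35 of the 43 members had a mean at or above the median of named probe sets.

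Whether the effect of CTCF siRNA itself changed with time was tested as a difference of differences. From 24 to 144 h it changed in 3 of 43 ZBTB genes, against 0.795% of all probe sets. These were ZBTB39 (−2.61 ± 0.30, limma adjusted p = 0.005), ZBTB7C (0.99 ± 0.19, adjusted p = 0.0484) and ZBTB10 (0.78 ± 0.14, adjusted p = 0.0408). ZBTB16 had 1.11 ± 0.22 (adjusted p = 0.0534). With any 1 of the 12 arrays left out, ZBTB39 was the only member that still passed, and with unnamed probe sets tested too it did not (adjusted p = 0.0573). The array codes of 24 h carry other numbers than those of 72 and 144 h, which leaves the pairing of 24 h arrays with later ones unknown. With the 24 h arrays as pairs of their own, ZBTB39 (adjusted p = 0.0117) and ZBTB16 (0.0417) passed, and ZBTB10 (0.0598) and ZBTB7C (0.0671) did not. Without any pairing all 4 passed, ZBTB16 at 0.0485. Between 72 and 144 h the count was 0 of 43, against 0.0186% of all probe sets called (limma). Between 24 and 72 h it was 0 of 43, against 0.0% of all. At an unadjusted p under 0.05 there were 5 and 3 of 43, beside 1351 and 864 of 16098 probe sets.

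Some ZBTB genes also differed between control siRNA and untransfected cells. At 24 h, control siRNA cells differed from untransfected cells in 4 of 43 (9.3%), against 7.57% of all probe sets. ZBTB10 (0.82 ± 0.10, limma adjusted p = 0.00126) and ZBTB16 (0.75 ± 0.17, adjusted p = 0.0231) were higher, ZBTB20 (−0.94 ± 0.17, adjusted p = 0.0065) and ZBTB8OS (−0.45 ± 0.12, adjusted p = 0.0456) lower. ZBTB20 had 4.61 and 4.51 in control siRNA cells at 24 h against 5.40 and 5.60 in untransfected cells, and CTCF siRNA cells, with 4.56 and 4.42, lay beside the control siRNA ones. By 72 h control siRNA cells had 5.13 and 5.61, which overlapped the untransfected arrays.

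At 72 h no ZBTB gene was called between control siRNA and untransfected cells, against 0.478% of all probe sets (limma). At an unadjusted p under 0.05 there were 5 of 43, beside 1915 of 16098 probe sets. At 144 h the count called was 1 of 43, against 4.14% of all, namely ZBTB17, higher by 0.52 ± 0.12 (adjusted p = 0.0366). ZBTB17 had 5.62 and 5.46 in those control siRNA cells and 5.18 and 4.86 in untransfected cells, and all 12 siRNA arrays (5.27 to 5.62) lay above both untransfected arrays. ZBTB39 showed no call in control siRNA cells at any time, at 0.03, 0.16 and 0.21. Untransfected cells also differed in growth genes. Of 18 S phase genes, 18, 9 and 16 were higher after control siRNA than without transfection at 24, 72 and 144 h (median differences 1.44, 0.96 and 1.25, against 0.01, 0.01 and 0.00 over all probe sets), and limma called none in CTCF against control siRNA cells at the 3 times (medians −0.01, −0.05 and 0.12, with 0, 0 and 1 at an unadjusted p under 0.05). Their part in the ZBTB values was not tested, and time in culture cannot be told apart from transfection here.

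These calls rested on few arrays. ZBTB10 at 24 h held with any of 14 arrays left out. ZBTB16 was lost without untransfected replicate 2 (adjusted p = 0.18) or either control siRNA array of 24 h (0.159 without replicate 1 and 0.0915 without replicate 2), and ZBTB20 without untransfected replicate 2 (0.0568) or control siRNA replicate 2 of 24 h (0.0843). ZBTB8OS was lost with any of the 14 left out (0.0509 to 0.273), and ZBTB17 at 144 h with 12 of the 14 (0.0512 to 0.224), all but CTCF siRNA replicates 1 and 2 of 72 h.

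**Figure D4:**
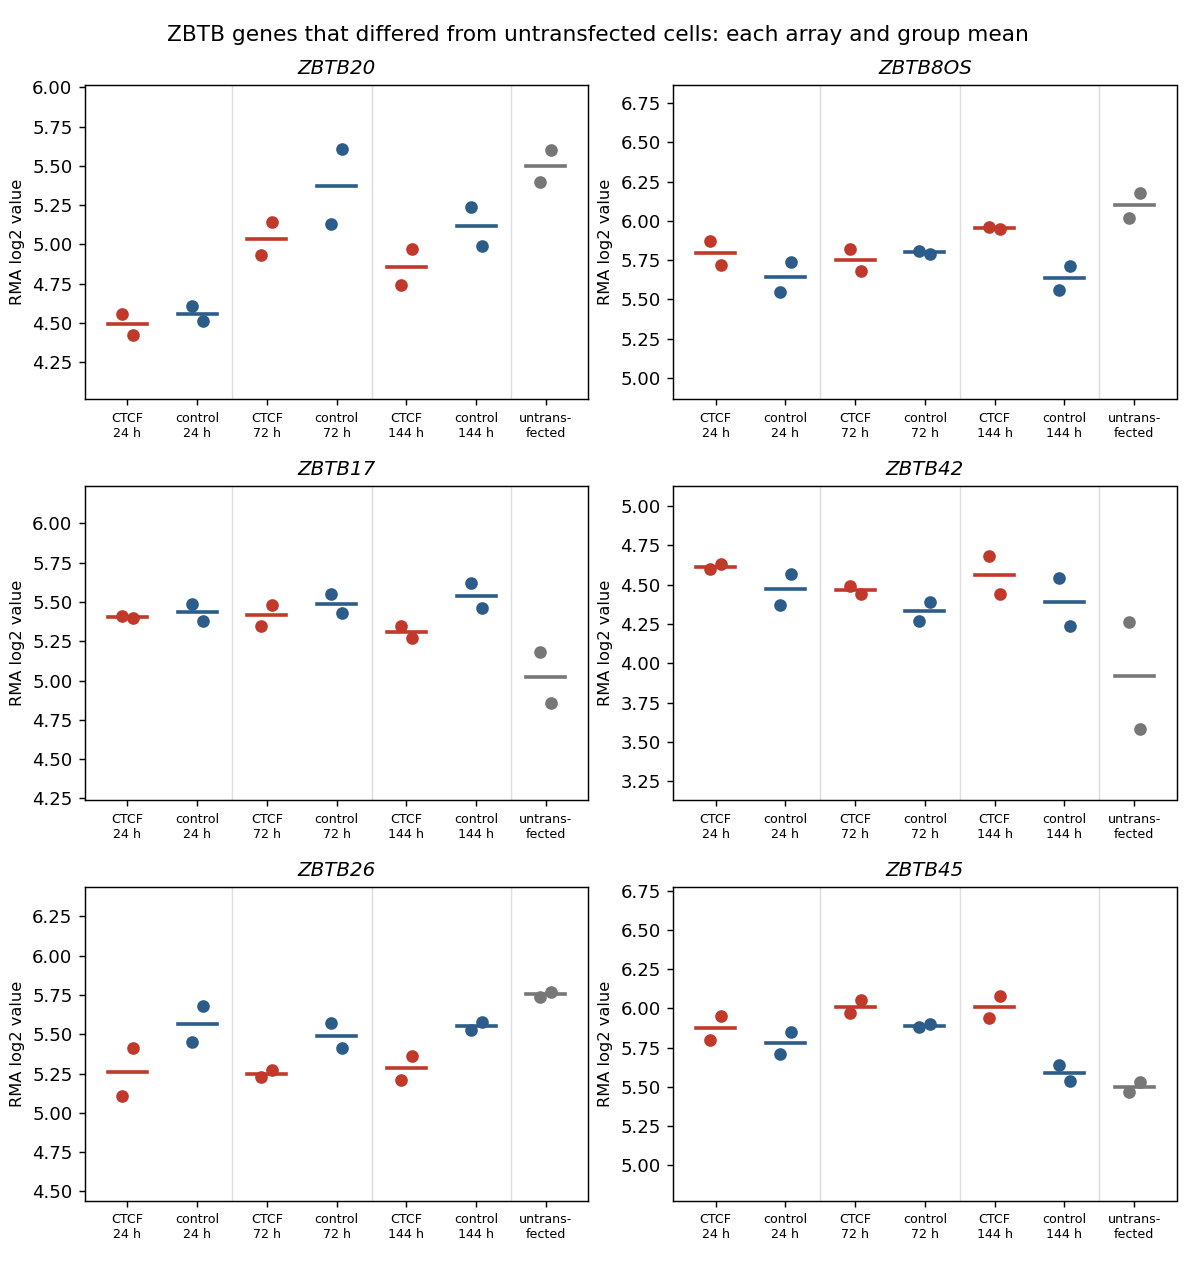
RMA log2 value (y axis, a range of its own in each panel) of ZBTB20, ZBTB8OS, ZBTB17, ZBTB42, ZBTB26 and ZBTB45 on every array (points) with group means (bars), for CTCF siRNA (red) and control siRNA (blue) at 24, 72 and 144 h and for untransfected cells (grey). ZBTB20 is lowest at 24 h in both siRNA groups (4.42 to 4.61), and ZBTB17 is lowest in untransfected cells (5.18 and 4.86).

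CTCF siRNA cells were last set against untransfected cells. At 24 h, 8 of 43 ZBTB genes were called (18.6%), against 9.25% of all probe sets. ZBTB16 (0.81), ZBTB10 (0.71), ZBTB42 (0.70) and ZBTB2 (0.66) were higher, ZBTB20 (−1.01), ZBTB39 (−0.73), ZBTB12 (−0.72) and ZBTB26 (−0.49) lower, with limma adjusted p = 0.0026 to 0.0446. At 72 h, 3 of 43 were called (6.98%), against 3.22% of all, with ZBTB16 (0.80) and ZBTB45 (0.51) higher and ZBTB39 (−1.94) lower. At 144 h it was 10 of 43 (23.3%), against 11.1% of all. ZBTB16 (1.19), ZBTB7C (0.65), ZBTB42 (0.64), ZBTB45 (0.50), ZBTB10 (0.43) and ZBTB7A (0.42) were higher, ZBTB39 (−3.16), ZBTB20 (−0.65), ZBTB26 (−0.47) and ZBTB37 (−0.43) lower. Without untransfected replicate 2, ZBTB7C was at 0.38 (adjusted p = 0.228) and ZBTB42 at 0.32 (0.347) at 144 h, and ZBTB42 at 0.37 (0.266) at 24 h. Without untransfected replicate 1, ZBTB12 was at −0.47 (0.249) at 24 h. With the 24 h arrays as pairs of their own, ZBTB39 at 24 h did not pass (0.0595). With each array left out in turn, the calls that held every time were ZBTB10 at 24 h, ZBTB39 at 72 h, and ZBTB39 and ZBTB16 at 144 h. The number called ran from 1 to 8 at 24 h, 1 to 4 at 72 h and 2 to 9 at 144 h in those fits. All comparisons of this kind share the 2 untransfected arrays. Of the 18 S phase genes, 18, 13 and 17 were higher in CTCF siRNA than in untransfected cells at 24, 72 and 144 h, and their part in these ZBTB values was not tested.

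ZBTB26 and ZBTB42 were called against untransfected cells and not against control siRNA cells. ZBTB26 had 5.11 and 5.41 at 24 h, 5.23 and 5.27 at 72 h and 5.21 and 5.36 at 144 h in CTCF siRNA cells, against 5.45 and 5.68, 5.57 and 5.41, and 5.53 and 5.58 in control siRNA cells and 5.74 and 5.77 in untransfected cells. Its CTCF siRNA arrays were below the control siRNA arrays of the same time at every time, and the difference averaged over the times was −0.27 (limma adjusted p = 0.0972). ZBTB42, a relative of the neural repressor ZBTB18, had 4.6 and 4.63 in CTCF siRNA cells at 24 h and 4.26 and 3.58 in untransfected cells, whose 2 arrays were the farthest apart of any member there. Its call was lost in 9 of the 14 fits with an array left out at 24 h (adjusted p = 0.0505 to 0.266) and in 11 of the 14 at 144 h (0.0528 to 0.347).

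BTB zinc-finger genes with other symbols, corepressor genes and known targets held no call between CTCF and control siRNA. Of 8 such BTB zinc-finger genes 7 were measured, and limma called none between CTCF and control siRNA at 24, 72 or 144 h (medians 0.07, 0.08 and 0.07, with 1, 0 and 1 at an unadjusted p under 0.05). BCL6, the germinal-centre repressor, was at 9.17 and 9.18 in CTCF siRNA cells at 144 h, 8.61 and 8.94 in control siRNA cells and 8.38 and 8.28 in untransfected cells, and was called only against untransfected cells at 144 h (0.84). Of 12 genes for BTB domain partners 10 were measured, among them BCOR, SIN3A, HDAC1, HDAC3 and CUL3, with none called between CTCF and control siRNA (medians 0.047, 0.015 and 0.066, with 0, 0 and 1 at an unadjusted p under 0.05, and 7 of 10 positive at 144 h). GPS2, a subunit of the NCOR complex, was called against untransfected cells at 144 h (0.39). Of 9 genes known to be controlled by ZBTB proteins only AFP, the target of ZBTB20, was measured under its symbol, at a mean log2 value of 1.76 and with differences of 0.03, 0.08 and 0.01.

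Markers of other cell types were low except for CD68, the only one of 4 immune markers measured, a lysosomal protein that is abundant in macrophages. It had 6.74 and 6.62 in CTCF siRNA cells at 144 h and 5.44 and 5.59 in control siRNA cells (1.17 ± 0.13, limma adjusted p = 0.00092). Of the 6 luminal markers, 3 were on the positive side at 144 h (median −0.03) and FOLH1 was the only one called. It was lower, at 10.05 and 9.96 in CTCF siRNA cells and 10.67 and 10.56 in control siRNA cells (−0.61 ± 0.11, adjusted p = 0.0138). HOXB13, at −0.64 ± 0.16 (adjusted p = 0.061), did not pass. CD68 and FOLH1 were called against control siRNA at 144 h, as ZBTB39, ZBTB16, ZBTB10 and ZBTB7C were. At 72 h they were at 0.36 and −0.28 (limma adjusted p = 0.506 and 0.542). At 24 h they were at 0.24 and −0.15 (adjusted p = 0.89 and 0.956). In CTCF siRNA against untransfected cells both were called at 24 h (0.50 and −0.47), neither at 72 h and both at 144 h. The part of CD68 and FOLH1 in the ZBTB results was not tested.

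The genes beside the called ZBTB genes were read in RefSeq order. The neighbours of ZBTB39, the atypical chemokine receptor gene ACKR5 and the tachykinin gene TAC3, were measured at mean log2 values of 3.72 and 2.96 and differed between CTCF and control siRNA at 144 h by −0.18 ± 0.20 and −0.07 ± 0.17 (limma adjusted p = 0.73 and 0.896). NNMT, next to ZBTB16 and with a mean of 3.52, was at 0.58 ± 0.26 (adjusted p = 0.31), with 0.31 at 72 h and 0.08 at 24 h. The means of ACKR5, TAC3 and NNMT lay below the median of named probe sets (4.74). Whether their values lie above background was not tested. ZBTB6, which lies next to ZBTB26, was at 0.11 ± 0.11 at 144 h, where ZBTB26 was at −0.27 ± 0.13. None of the 11 measured neighbours of called ZBTB genes passed the threshold at 24, 72 or 144 h. Of these, only ACKR5, TAC3 and NNMT lie beside a gene called between CTCF and control siRNA. The rest lie beside genes called only in comparisons with untransfected cells. No neighbour of ZBTB10 or ZBTB7C was measured, so nothing can be said of theirs.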

How the data were processed

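The arrays were of the Affymetrix Human Gene 2.0 ST type, with RNA from LNCaP cells. The deposited values are on the log2 scale. The authors made them by RMA (background correction, quantile normalisation and median polish) in R 3.2.5, and also used limma. The genome build of the probe annotation is not given in the sources used here. Of 53617 probe sets, 16098 have 1 symbol and were tested, and 37519 have none.

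Differences were computed with limma 3.58.1 (lmFit and eBayes, R 4.3.3), on the 12 siRNA arrays for comparisons between siRNA groups and on all 14 for those with untransfected cells. The replicate number of the titles was a block, since the study's methods paired the replicates, but the array codes of 24 h end in 3 and 4 where those of the later times end in 1 and 2, so that pairing across times is unsure. Same-numbered CTCF and control siRNA arrays deviated together with correlations of 0.043, 0.228 and 0.154 at 24, 72 and 144 h. The model was tested on simulated data. The number of arrays limits the precision. Tables and figures were made with Python 3.11.15, pandas 2.3.3 and matplotlib 3.10.9.

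The ZBTB genes named are those called in any comparison, the 5 with the most positive and the 5 with the most negative CTCF siRNA minus control siRNA difference at 144 h, the 4 highest and 4 lowest by mean, 10 with well known roles, the 3 that encode no ZBTB protein, ZBTB39 and ZBTB10. Neighbours of called genes and called members of the other lists were added. ZBTB9 and ZBTB22 were named for their several probe sets, ZBTB11 as the partner of an antisense RNA and ZBTB6 as a neighbour. Members and lists were chosen with earlier results of these data known. Alternatives left out the block, used other arrays in the fit, tested all probe sets, left out dim ones, normalised again, centred the arrays, changed the variance prior, paired the 24 h arrays apart (added after the values were seen) or left out single arrays.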

Additional observations from a re-analysis of the deposited data

Results flagged for a closer look

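The effect of CTCF siRNA differed between 144 h and 24 h, by limma's test of that difference itself, in 3 ZBTB genes. The change of the log2 effect was −2.61 for ZBTB39, 0.99 for ZBTB7C and 0.78 for ZBTB10. With any 1 of the 12 siRNA arrays left out, ZBTB39 was the only one that still passed the threshold. With unnamed probe sets tested too, none of the 3 passed (ZBTB39 at an adjusted p of 0.0573 by limma), and with the 24 h arrays as pairs of their own ZBTB10 (0.0598) and ZBTB7C (0.0671) did not.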

How the results depend on the processing

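The calls of ZBTB39 and ZBTB16 at 144 h passed the threshold under all 20 alternatives, with the ZBTB39 difference between −3.56 and −3.16 and that of ZBTB16 between 1.06 and 1.30, and no result reversed its direction. With unnamed probe sets tested too, fewer members were called: 0 at 72 h, 0 for the change of the CTCF effect from 24 to 144 h, 0 for each control siRNA time comparison, 2 and 0 for control siRNA against untransfected at 24 and 144 h, and 2, 1 and 3 for CTCF siRNA against untransfected at 24, 72 and 144 h. With only probe sets at or above the median level, 5 were called in the average over times, 2 in each control siRNA time comparison, 7, 1 and 2 for control siRNA against untransfected at 24, 72 and 144 h and 6 for CTCF siRNA against untransfected at 72 h. That filter leaves out ZBTB7C, and ZBTB45 took its place among 4 calls at 144 h. With an intensity trend and robust priors, 2 were called for control siRNA at 144 h against 24 h, 2 for control siRNA at 144 h against untransfected and 5 for CTCF siRNA at 72 h against untransfected. With other arrays in the fit, 0 were called for control siRNA at 144 h against untransfected and 3, 1 and 5 for CTCF siRNA against untransfected at 24, 72 and 144 h. Without the replicate block, 2 were called for control siRNA at 144 h against untransfected and 4 for the change from 24 to 144 h, ZBTB16 being added, and the counts at 72 h and 144 h and in the average stayed at 1, 4 and 2. With the 24 h arrays as pairs of their own, a setting added after the values were seen, ZBTB39 and ZBTB16 were the 2 called in the change from 24 to 144 h. Apart from the numbers of probe sets and arrays tested, the causes were not tested.

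With single arrays left out, the count ran from 0 to 1 at 72 h, from 2 to 4 at 144 h, from 1 to 1 for the change from 24 to 144 h, from 0 to 1 in each control siRNA time comparison, from 1 to 4 and 0 to 1 for control siRNA against untransfected at 24 and 144 h, and from 1 to 8, 1 to 4 and 2 to 9 for CTCF siRNA against untransfected at 24, 72 and 144 h. Among single genes, 829 values under an alternative kept their side of the threshold, 217 lost a call and 7 gained one, the last being ZBTB10 averaged over the times (3) and ZBTB16 in the change from 24 to 144 h (4). With 2 arrays a group, a small difference could not be resolved.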
